A study of Homo sapiens with 6 samples.

Results

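DKK4, DKK1, NOTUM, RNF43, ZNRF3, AXIN2, NKD1, TCF7, LEF1 and ENC1 are genes whose transcription is driven by the Wnt pathway, and most of their products act back on it. These 10 genes were found by symbol among the 58735 genes of the count table. They were chosen on their place in the pathway and with the knockdown-against-control differences of these same libraries already known, so their differences are a description. Which of them were past the threshold of the fit over all genes is stated as a count beside the share of all genes. Some of these calls are also followed over alternative fits, as a description. They support nothing. All 10 passed the filter on low counts, which left 17574 genes. The cells were labelled SW480, a colorectal cancer line. The control group (genotype CNOT7 control) and the knockdown group (genotype CNOT7 knockdown) had 3 libraries each, from the same line and with no treatment. CNOT7 is a deadenylase of the CCR4-NOT complex, which shortens the poly(A) tails of mRNAs. The knockdown was stable and made by shRNA against CNOT7. The labels do not say which shRNA each library carries or whether the numbers 1, 2 and 3 stand for separate cultures, so the spread between libraries may be technical. The paper's text calls the sequenced cells HCT116, another colorectal cancer line. The groups are the same under either name.

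When no Wnt protein is bound, a destruction complex built on the scaffolds APC and AXIN marks β-catenin for degradation. When Wnt binds Frizzled and LRP5 or LRP6, the complex stops, and β-catenin enters the nucleus and joins the DNA-binding proteins TCF7, LEF1, TCF7L1 and TCF7L2. Colorectal tumours usually carry a mutation of APC or of β-catenin itself, and the targets are then transcribed without a ligand. Several targets dampen the pathway. DKK1 and DKK4 block the co-receptors from outside, NOTUM removes the lipid from Wnt proteins, RNF43 and ZNRF3 clear Frizzled from the membrane, AXIN2 rebuilds the destruction complex and NKD1 binds Dishevelled.

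TCF and LEF proteins bind the DNA core CTTTG. The 7-base forms (CTTTGAA or CTTTGAT or CTTTGTA or CTTTGTT) were looked for on both strands of the RefSeq promoter windows of GRCh38.p14, which run from 250 bases before to 50 bases after a start site. The table held windows for 4 of the 10 genes, DKK1, LEF1, TCF7 and RNF43. A form was present in 2 of their 6 windows, against 13.8% of all 35116 windows. The matches are shown in capitals with 11 bases on each side, because DKK1 and TCF7 are among the members with the larger differences. The DKK1 matches lie at chr10:52314186-52314192 and chr10:52314205-52314211, upstream of the start site on the gene strand. The TCF7 match lies at chr5:134123568-134123574, in the window of its second start site, and is the reverse complement of CTTTGTT.
DKK1, first match: ccctcccagcgCTTTGAAatcccatcccg
DKK1, second match: tcccatcccggCTTTGTTgtctccctccc
TCF7: ggccccactggAACAAAGgaggagagagg
The windows of LEF1 and RNF43 held none of these letters. A match is a string of letters in a window and was not tested for binding.

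The CCR4-NOT complex is known to be brought to mRNAs by proteins that bind AU-rich elements and by Pumilio proteins. The AU-rich core TATTTAT and the Pumilio motif TGTANATA were therefore counted on the mRNA strand of the 3′ UTR of the principal GENCODE transcript. The annotated 3′ UTR of DKK4 was 32 bases long and was not searched. Of the other 9 members, 4 held an AU-rich core (ENC1 and RNF43 5 each, AXIN2 and NKD1 2 each), against 32.3% of 13283 tested genes. A Pumilio motif was found once in AXIN2 and once in ENC1, against 26.7% of those genes. The 3′ UTRs of the members were longer (median 1413 against 1093 bases), and that of NKD1 had 15468 bases. Per kilobase, AU-rich cores stood at 0.528 in the members and 0.323 in those genes. Pumilio motifs stood at 0.0755 and 0.236. These rates divide summed sites by summed length, so the long 3′ UTR of NKD1 weighs the most in the members. NKD1 alone stood at 0.129 AU-rich cores and 0 Pumilio motifs per kilobase, so the rates do not describe a typical member. Sites are shown in capitals for ENC1, the member lowest against its control, and for the other holders of a site. For AXIN2, RNF43 and NKD1, the AU-rich site nearest the start of the 3′ UTR is shown. In ENC1, 3 AU-rich cores overlap at chr5:74628826-74628840, and the Pumilio motif is at chr5:74628870-74628877. The AXIN2 Pumilio motif is at chr17:65528891-65528898 and its first of 2 AU-rich sites at chr17:65529751-65529757. The first of 5 RNF43 sites is at chr17:58353752-58353758 and the first of 2 NKD1 sites at chr16:50633962-50633968. All lie in GRCh38, on the reverse strand except for NKD1.
ENC1, AU-rich: caaagttTATTTATTTATTTATtacccta
ENC1, Pumilio: aatagttcTGTATATAgggcacaa
AXIN2, Pumilio: tatacatcTGTATATAgtgtacgg
AXIN2, AU-rich: gcctgaacTATTTATtaaaaaca
RNF43, AU-rich: cacatgggTATTTATatctgaac
NKD1, AU-rich: taaactttTATTTATatgttgtg
The 4 members with an AU-rich core did not share a direction. RNF43 and NKD1 were higher in every knockdown library than in every control library, and ENC1 and AXIN2 were lower. The difference of AXIN2 was small (log2 fold change -0.11, against -1.23 for ENC1), and AXIN2 was not past the threshold of the fit. Whether the sites have a part in these differences was not tested.

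The libraries held 23788451 to 25982493 counts in the control group and 27523812 to 29104872 in the knockdown group. Levels are stated as CPM, the usual share-of-library scale, in which each count is divided by the TMM-corrected size of its library. CNOT7 stood at 169, 191 and 176 CPM in the control libraries and at 43.4, 47.2 and 38.6 CPM in the knockdown libraries, so 24.1% of its mean level was left (log2 fold change -2.05, SE 0.0734). Of the 9 colorectal epithelial markers, 7 were tested. EPCAM was measured with at least 5060 counts in every library, whereas KRT20 and LGALS4 reached at most 9 counts. The summed level of the list was 1389 to 1479 RPKM in the control and 1284 to 1421 RPKM in the knockdown libraries. Of these 7, CDH1 and VIL1 rose with knockdown (log2 fold changes 0.51 and 0.72, adjusted p = 1.55e-04 and 2.93e-05) and KRT19 and KRT8 fell (-0.18 and -0.15, adjusted p = 0.0212 and 0.0414). Of 5 fibroblast markers only COL1A1 was tested, COL3A1 and DCN had 0 counts in all libraries, and their summed level was 0.749 to 1.01 RPKM in the control and 0.897 to 0.984 RPKM in the knockdown libraries. Of 7 blood and endothelial markers, 2 were tested, PTPRC reached at most 4 counts, and their summed level was 0.287 to 0.618 RPKM in the control and 0.643 to 0.807 RPKM in the knockdown libraries. The part of these markers in the results was not tested. In bulk RNA, fewer cells that express a gene and less RNA per cell cannot be told apart.

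Of the 10 members, 4 were past an adjusted p-value of 0.05 and higher with knockdown (DKK4, TCF7, RNF43 and NKD1) and 2 were past it and lower (ENC1 and DKK1). Of all tested genes, 13.3% were called higher and 11.9% lower. Because the members were chosen with this comparison known, nothing is read from their count. The knockdown range lay above the control range in the same 4 genes, and 20.6% of all tested genes did so. It lay below in 4 members, ENC1, DKK1, LEF1 and AXIN2, and 18.2% of all tested genes did so. The median log2 fold change was 0.028 over the members and 0.0039 over all tested genes. The 4 members not past the threshold were AXIN2, LEF1, NOTUM and ZNRF3.

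**Figure D1:**
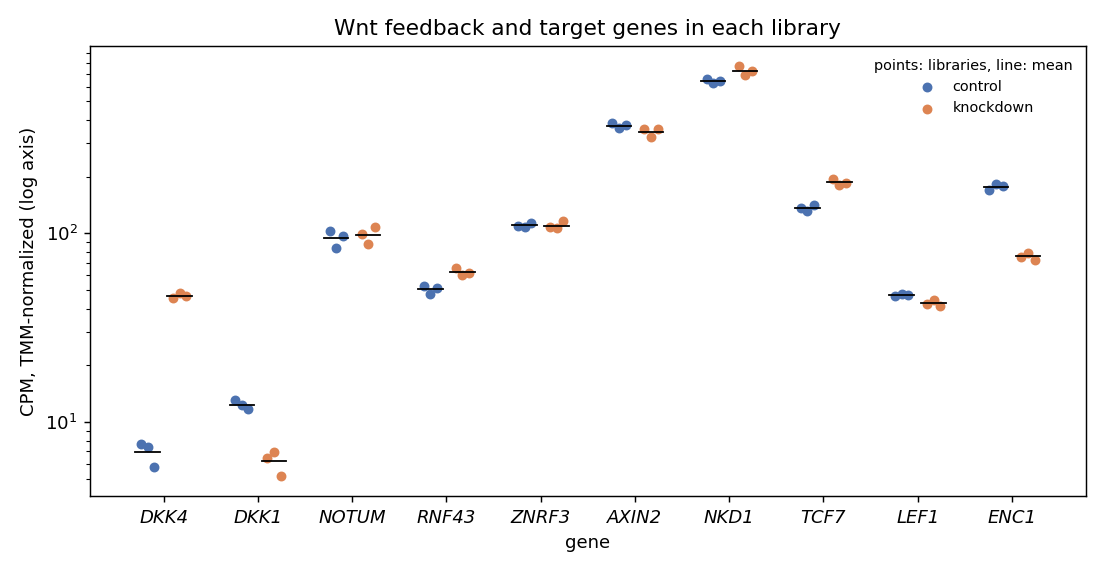
TMM-normalized CPM on a log axis for the 10 genes, with 1 point per library (replicates 1, 2 and 3 from left to right) and a black line at the group mean. DKK4 sat between 5.79 and 7.70 CPM in the control and between 45.4 and 48.5 CPM in the knockdown libraries, while DKK1 and ENC1 were lower in every knockdown library.

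The secreted antagonists DKK4 and DKK1 differed in opposite directions. DKK4 (ENSG00000104371, GRCh38, reverse strand of chromosome 8 from 42374068 to 42377232) was at 7.70, 7.39 and 5.79 CPM in control replicates 1, 2 and 3 and at 45.4, 48.5 and 46.5 CPM in knockdown replicates 1, 2 and 3. The lowest knockdown library was far above the highest control library. The raw counts behind these values were 145 to 198 in the control and 1279 to 1385 in the knockdown libraries. The log2 fold change was 2.75 (SE 0.0977), a 6.72-fold higher level, which placed DKK4 at rank 18 from the top among 17574 tested genes. No other annotated gene overlaps its exons.

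DKK1 (ENSG00000107984, forward strand of chromosome 10 from 52314296 to 52318042) was at 13.1, 12.3 and 11.8 CPM in the control libraries and at 6.46, 6.99 and 5.20 CPM in the knockdown libraries. Every knockdown library was below every control library, and the mean was 50.1% of the control mean. The log2 fold change was -0.999 (SE 0.121), rank 168 from the bottom. Counts were 286 to 337 in the control and 155 to 193 in the knockdown libraries. Its exons share 9.61% of their bases with PRKG1-AS1 on the opposite strand, which had at most 10 counts. The library kit named in the labels was not stated to keep strand, so reads of both genes would be hard to separate there.

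Within each library the ratio of DKK4 to DKK1 was taken per length (RPKM, CPM per kilobase of the gene length in the table). It was 1.45, 1.48 and 1.21 in the control libraries and 17.3, 17.1 and 22.05 in the knockdown libraries. Per length, DKK4 mRNA was thus somewhat above DKK1 mRNA in every control library and far above it in every knockdown library. Protein levels of these antagonists were not read here.

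NOTUM, the secreted carboxylesterase that inactivates Wnt proteins (ENSG00000185269, reverse strand of chromosome 17 from 81952507 to 81961840), was at 102.6, 84.0 and 97.1 CPM in the control libraries and at 99.5, 87.8 and 107.8 CPM in the knockdown libraries. The groups overlapped, and the difference was smaller than the spread within either group (log2 fold change 0.06, SE 0.0793). Its level was the lowest in replicate 2 of both groups.

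The membrane ubiquitin ligases RNF43 and ZNRF3, which remove Frizzled receptors, differed from each other in their response. RNF43 (ENSG00000108375, reverse strand of chromosome 17 from 58352500 to 58417595) was at 52.5, 47.9 and 51.4 CPM in the control libraries and at 65.6, 60.1 and 61.7 CPM in the knockdown libraries. The groups did not overlap, and the log2 fold change was 0.30 (SE 0.0655), or 1.23-fold. This value is uncertain, because 73.9% of the exonic bases of RNF43 are shared with other annotated genes, 57.6% with AC004687.2 on the same strand (5 to 21 counts) and 20.3% with TSPOAP1-AS1 on the other strand (26 to 47 counts). The setting for reads on shared bases is not given in the sources used here. RNF43 itself had 1115 to 1849 counts, so nearly all of its reads were not also counted for AC004687.2. If reads on shared bases were dropped, division by the full length puts the level of RNF43 too low.

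ZNRF3 (ENSG00000183579, forward strand of chromosome 22 from 28883592 to 29057487) was at 108.8, 108.3 and 113.3 CPM in the control libraries and at 107.5, 106.9 and 115.7 CPM in the knockdown libraries. The groups overlapped fully, with a log2 fold change of -0.0011 (SE 0.0567). No other gene overlaps its exons. The ratio of RNF43 to ZNRF3 per length was 0.448, 0.411 and 0.421 in the control libraries. It was 0.566, 0.522 and 0.495 in the knockdown libraries. These ratios divide RNF43 by its full length, of which 73.9% is shared with other genes. Which of the pair is higher per length is therefore uncertain.

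Per length, the cytoplasmic inhibitors AXIN2 and NKD1 had the highest levels of the members in the control libraries. AXIN2 (ENSG00000168646, reverse strand of chromosome 17 from 65528563 to 65561647) is the scaffold most often used as a readout of β-catenin activity. It was at 384.9, 360.8 and 373.2 CPM in the control libraries and at 359.5, 323.6 and 355.6 CPM in the knockdown libraries. The knockdown libraries lay just below the control libraries, with 359.5 against 360.8 CPM at the closest, and the log2 fold change was -0.11 (SE 0.0541). Of its exonic bases, 25.2% are shared with AC004805.1 on the same strand, which had 9 to 11 counts. If reads on these bases were dropped, the level of AXIN2 per length is too low. The ratio of AXIN2 to its paralog AXIN1 per length was 10.3 to 11.7 in the control and 9.70 to 11.4 in the knockdown libraries, and the groups overlapped.

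NKD1 (ENSG00000140807, forward strand of chromosome 16 from 50548330 to 50649249), which restrains the pathway through Dishevelled, was at 660.0, 624.9 and 640.3 CPM in the control libraries and at 767.0, 692.4 and 728.8 CPM in the knockdown libraries. All knockdown libraries were above all control libraries. The log2 fold change was small at 0.18 (SE 0.0507), a 1.14-fold difference. It was no longer past the threshold without control replicate 3 (log2 fold change 0.18) or without knockdown replicate 1 (0.14). The ratio of NKD1 to NKD2, the related inhibitor, was 1.51 to 1.63 per length in the control and 1.60 to 1.86 in the knockdown libraries, and here the groups overlapped.

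**Figure D2:**
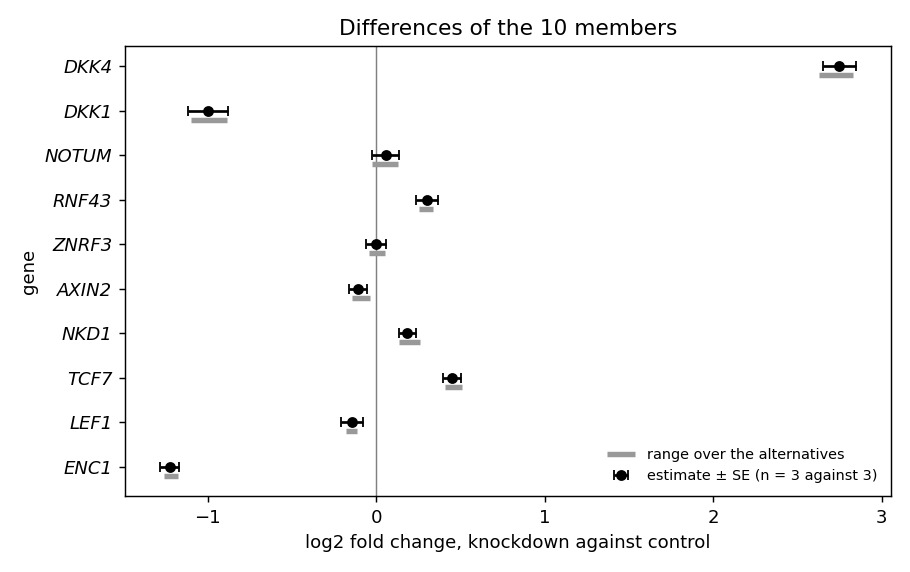
Log2 fold change of each member, knockdown against control, as a black point with its standard error (3 against 3 libraries), and below it in grey the range of the estimate over all alternative fits. DKK4 at 2.75, ENC1 at -1.23 and DKK1 at -0.999 stand apart from the other members, which lie between -0.14 and 0.45.

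Among the DNA-binding partners of β-catenin, TCF7 was higher and LEF1 slightly lower. TCF7 (ENSG00000081059, forward strand of chromosome 5 from 134114711 to 134151865) was at 136.7, 132.2 and 140.7 CPM in the control libraries and at 194.9, 180.8 and 183.9 CPM in the knockdown libraries. The groups were well separated, with a log2 fold change of 0.45 (SE 0.0546), or 1.37-fold. Its exons share 2.09% of their bases with SKP1 on the opposite strand, which is abundant at 5525 to 6845 counts.

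LEF1 (ENSG00000138795, reverse strand of chromosome 4 from 108047545 to 108168956) was at 46.8, 47.9 and 47.2 CPM in the control libraries and at 42.4, 44.6 and 41.3 CPM in the knockdown libraries. The groups did not overlap, but the difference was small (log2 fold change -0.14, SE 0.0652). The ratio of TCF7 to LEF1 per length was 1.56, 1.47 and 1.59 in the control libraries and 2.45, 2.16 and 2.37 in the knockdown libraries. TCF7 also stood above TCF7L2, by 2.23 to 2.54 times per length in the control and 2.82 to 3.38 times in the knockdown libraries.

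ENC1 is a BTB-kelch protein that binds actin, and its gene is a target of β-catenin in colorectal tumours. ENC1 (ENSG00000171617, reverse strand of chromosome 5 from 74627406 to 74641424) was at 169.5, 182.6 and 178.5 CPM in the control libraries and at 75.4, 79.1 and 72.2 CPM in the knockdown libraries. The knockdown mean was 42.7% of the control mean in well separated groups, with a log2 fold change of -1.23 (SE 0.0581), rank 91 from the bottom.

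**Figure D3:**
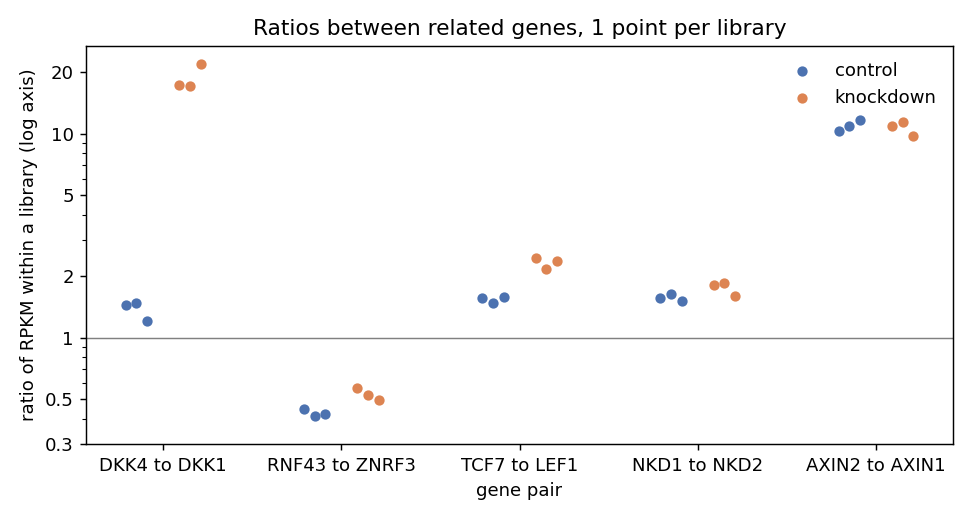
Ratio of RPKM between related genes within each library, on a log axis, with 1 point per library (replicates 1, 2 and 3 from left to right) and a line at 1. The DKK4 to DKK1 ratio went from at most 1.48 in the control to at least 17.1 in the knockdown libraries, the TCF7 to LEF1 and RNF43 to ZNRF3 ratios were moderately higher, and the AXIN2 to AXIN1 ratio overlapped between the groups.

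The order of the members' levels per length was compared within each group. In the control libraries AXIN2 led at 71.4 RPKM, followed by NKD1 at 36.8, NOTUM at 31.3, ENC1 at 30.2, ZNRF3 at 15.8, TCF7 at 13.6, LEF1 at 8.82, DKK4 at 7.79, RNF43 at 6.75 and DKK1 at 5.62 RPKM. The ranges of NOTUM and ENC1 overlapped, as did those of DKK4 and RNF43, so the order within these pairs was not resolved. In the knockdown libraries AXIN2 led at 66.3 RPKM and DKK4 was second at 52.3 RPKM, above NKD1 at 41.9 and NOTUM at 32.6 RPKM. TCF7 at 18.5 and ZNRF3 at 15.8 RPKM came next, and ENC1 had moved from place 4 to place 7 at 12.9 RPKM. RNF43 at 8.32 and LEF1 at 7.98 RPKM overlapped, and DKK1 was the lowest at 2.82 RPKM. These levels depend on the gene length. For RNF43, 73.9% of the bases in its length are shared with other genes, so its place is uncertain. The length of NKD1 in the table is 17425 bases, most of it in a 3′ UTR of 15468 bases, and without division by length NKD1 led in both groups.

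The rest of the pathway was read from 6 lists with 121 genes in all, of which 101 were tested. Of these, 27 rose and 24 fell with knockdown past the threshold, while 13.3% and 11.9% of all tested genes did. The median log2 fold change of the 101 genes was 0.0034. For these lists, rose and fell are used only for genes past an adjusted p-value of 0.05. The lists were chosen with earlier results of these data known, so the counts per list are a description. Of 5 core genes named whatever their values, GSK3B fell, from 113 ± 1.958 to 96.4 ± 2.04 CPM (SD, n = 3 each, log2 fold change -0.23, SE 0.0543, adjusted p = 0.00417), and the other 4 were not past the threshold. CTNNB1, which encodes β-catenin, was at 1178 ± 32.1 CPM (SD, n = 3) in the control and 1204 ± 63.7 CPM (SD, n = 3) in the knockdown libraries (log2 fold change 0.03, SE 0.0495, adjusted p = 0.695). APC was at 84.4 ± 4.81 and 78.8 ± 6.95 CPM (SD, n = 3 each, adjusted p = 0.331), AXIN1 at 48.8 ± 4.22 and 46.8 ± 5.88 CPM (SD, n = 3 each, adjusted p = 0.672) and TCF7L2 at 38.6 ± 1.38 and 39.8 ± 2.78 CPM (SD, n = 3 each, adjusted p = 0.718).

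**Figure D4:**
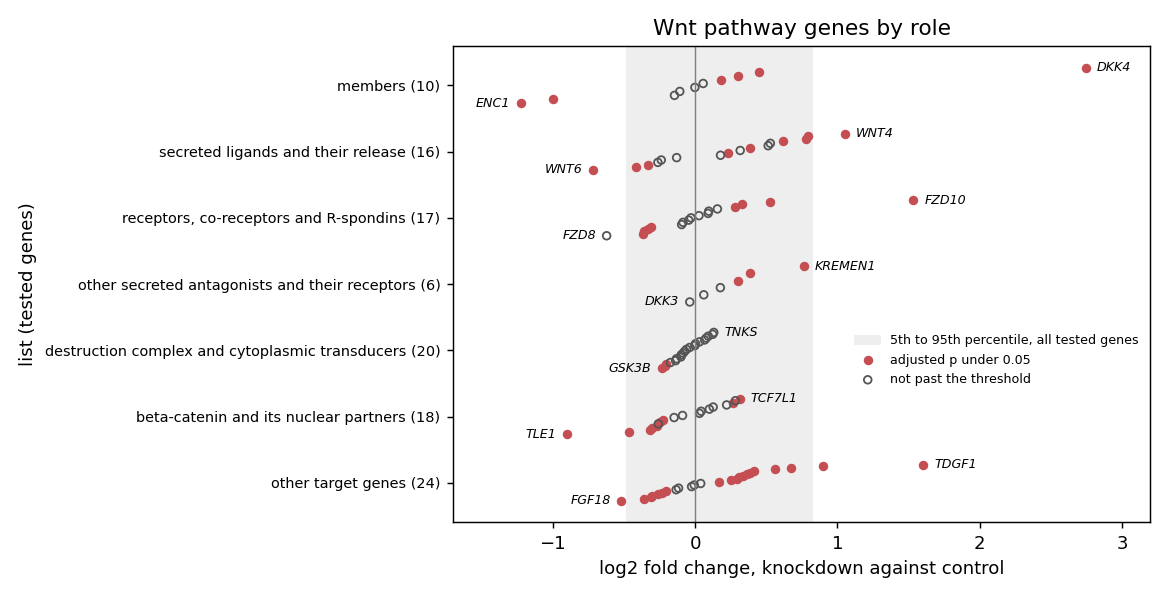
Log2 fold change, knockdown against control, of every tested gene in the member list and the 6 other pathway lists, with the number tested in brackets, filled where the adjusted p-value was under 0.05, and the lowest and highest gene of each list named. The grey band spans the 5th to 95th percentile of all tested genes, -0.48 to 0.82, which holds all 20 genes of the destruction complex list while 8 genes of the other lists lie outside it, WNT4, WNT6, FZD8, FZD10, TLE1, PROX1, TDGF1 and FGF18.

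Among 16 tested genes for Wnt ligands and their release, the median log2 fold change was 0.28. Of these, 6 rose and 3 fell (37.5% and 18.8%, against 13.3% and 11.9% of all tested genes). WNT6 fell from 107 ± 6.63 to 65.5 ± 4.46 CPM (SD, n = 3 each, log2 fold change -0.71, SE 0.0664, adjusted p = 5.69e-07). WNT10B rose from 4.59 ± 0.801 to 7.97 ± 0.508 CPM (SD, n = 3 each, log2 fold change 0.79, SE 0.139, adjusted p = 4.23e-04). WNT4 and WNT7B rose from low levels of 0.460 and 1.23 CPM (log2 fold changes 1.05 and 0.78, SE 0.34 and 0.237, adjusted p = 0.031 and 0.0225). The WNT4 call was lost with each library left out other than knockdown replicate 2 (adjusted p from 0.0506 to 0.133), with DESeq2 (0.0796) and with the trend with abundance removed (0.078). The WNT7B call was lost without control replicate 1 (0.0909) or 2 (0.0587), without knockdown replicate 1 (0.0763) or 3 (0.0785) and with the trend removed (0.0683).

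Of 17 tested receptors and co-receptors, 4 rose and 4 fell (23.5% each, against 13.3% and 11.9% of all tested genes). The Frizzled genes moved in both directions. FZD10 rose from 1.66 ± 0.122 to 4.82 ± 0.535 CPM (SD, n = 3 each, log2 fold change 1.53, SE 0.173, adjusted p = 5e-06) and FZD4 from 10.04 ± 0.715 to 14.5 ± 0.986 CPM (SD, n = 3 each, log2 fold change 0.53, adjusted p = 9.24e-04). FZD7 fell from 71.9 ± 1.82 to 56.1 ± 1.07 CPM (SD, n = 3 each, log2 fold change -0.36, adjusted p = 2.7e-04). ROR1, a receptor for WNT5A, had a log2 fold change of -0.37 (adjusted p = 0.0297, but 0.158 without control replicate 2 and 0.118 without knockdown replicate 1). LGR5, the R-spondin receptor of intestinal stem cells, had 0 counts in the control and 2 counts in each knockdown library, and no R-spondin gene was tested.

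Other secreted antagonists and their receptors had 6 tested genes. Of these, 3 rose and none fell (50% and 0%, against 13.3% and 11.9% of all tested genes). KREMEN1, the transmembrane partner through which DKK1 removes LRP6 from the membrane, rose from 77.0 ± 3.13 to 130.6 ± 7.40 CPM (SD, n = 3 each, log2 fold change 0.76, SE 0.0608, adjusted p = 8.38e-08). SFRP5, a soluble Wnt-binding protein, had a log2 fold change of 0.39 (SE 0.0854, adjusted p = 0.00289). APCDD1, a membrane inhibitor that is itself a target, rose from 741 ± 36.2 to 911 ± 45.3 CPM (SD, n = 3 each, log2 fold change 0.30, adjusted p = 4.55e-04). DKK3, the remaining DKK gene with enough counts for a test, differed by less than the spread between replicates (log2 fold change -0.04, SE 0.0719, adjusted p = 0.76).

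All 20 genes of the destruction complex and the cytoplasmic transducers were tested. By sign alone, 7 had a log2 fold change above 0 and 13 below. Past the threshold, none rose and 3 fell (0% and 15%, against 13.3% and 11.9% of all tested genes). Beside GSK3B these were the kinase genes GSK3A and CSNK1D, each with a log2 fold change of -0.21 (adjusted p = 0.0333 and 0.0185). GSK3A lost the call without control replicate 1 (0.123) or 3 (0.107), without knockdown replicate 1 (0.0568) or 2 (0.101) and with the trend with abundance removed (0.103). CSNK1D lost it without control replicate 1 (0.0917), without knockdown replicate 1 (0.0518) and with the trend removed (0.0773).

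Among 18 genes for β-catenin and its nuclear partners, the median log2 fold change was -0.12. Of these, 2 rose and 7 fell (11.1% and 38.9%, against 13.3% and 11.9% of all tested genes). TLE1, a corepressor that binds TCF proteins, fell from 16.5 ± 1.16 to 8.87 ± 0.972 CPM (SD, n = 3 each, log2 fold change -0.90, SE 0.106, adjusted p = 8.45e-06). The coactivator CREBBP fell from 112 ± 4.08 to 81.4 ± 1.92 CPM (SD, n = 3 each, log2 fold change -0.46, adjusted p = 1.26e-05), and CTNNBIP1, an inhibitor of the β-catenin and TCF contact, had a log2 fold change of -0.32 (adjusted p = 0.0121). TCF7L1 had a log2 fold change of 0.31 (adjusted p = 0.0118), which lost its call without control replicate 3 (0.0631) and without knockdown replicate 1 (0.0764). The members TCF7 and LEF1 belong to the same family of DNA-binding proteins, and their differences are described above.

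Of 24 other target genes tested, 12 rose and 7 fell (50% and 29.2%, against 13.3% and 11.9% of all tested genes). TDGF1, which encodes the coreceptor Cripto, rose from 0.538 ± 0.107 to 1.65 ± 0.360 CPM (SD, n = 3 each, log2 fold change 1.60, SE 0.302, adjusted p = 7.97e-04). PROX1, a homeobox gene, rose from 44.2 ± 3.40 to 82.4 ± 3.37 CPM (SD, n = 3 each, log2 fold change 0.90, SE 0.0684, adjusted p = 4.65e-08). The transcription factor gene ETS2 and the receptor gene TNFRSF19 had log2 fold changes of 0.68 and 0.56 (adjusted p = 4.84e-08 and 1.36e-05). The calls among the other target genes went in both directions, and nothing is read from this.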

How the data were processed

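RNA from 6 SW480 libraries was analysed from 1 deposited table of raw counts per gene, which the authors did not normalize. Per the labels, total RNA was extracted with TRIzol and libraries were made with a NEBNext Ultra RNA kit. The submitters' processing notes name CASAVA 1.8, fastp, HISAT2 2.0.5, featureCounts 1.5.0-p3, DESeq2 1.20.0 and GRCh38, without settings. The gene length in bases is another deposited column. All count columns were matched to samples by title, and 0 columns went unused. Of 58735 genes, 58724 had the start and end of GENCODE release 29.

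Counts were tested in R 4.3.3 with edgeR 4.0.16 (filterByExpr, TMM, glmQLFit, glmQLFTest, Benjamini-Hochberg adjustment, threshold 0.05). Standard errors were derived from the fold change and its F statistic. Libraries of a group differed by more than counting noise (chi-square per degree of freedom 3.25 to 10.6), so none was counted as a copy. The model was checked on simulated data. The members and lists were chosen with earlier results of these data known. Named genes are CNOT7, the members, genes that overlap them, APC, AXIN1, GSK3B, CTNNB1, TCF7L2 and up to 4 called genes with the largest change per list. Alternatives were DESeq2 1.42.0, RLE factors, other filters, a replicate block, cyclic loess offsets (limma 3.58.1), a minimum log2 fold change of 1 and leaving out libraries. Sequences were read with Python 3.11.15, plots drawn with matplotlib 3.10.9. Values of single genes that are withheld, among the markers and the overlapping genes, are not reported here.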

Additional observations from a re-analysis of the deposited data

How the results depend on the processing

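Over 13 alternatives per gene, CNOT7 kept its direction and call, and the members kept their direction except NOTUM and ZNRF3, whose ranges (-0.02 to 0.13 and -0.04 to 0.05) include 0. With the trend with abundance removed, NKD1 moved from 0.18 to 0.26, TCF7 from 0.45 to 0.51 and AXIN2 from -0.11 to -0.04, each by more than its standard error. When a called gene also had to differ by at least 1 on the log2 scale, the members past the threshold were 1 higher and 1 lower, the other pathway genes 3 higher and 0 lower, and all genes 492 higher and 146 lower. DKK1, at -0.999, falls just short of that limit. The replicate block gave 4 members lower instead of 2, with AXIN2 and LEF1 added, and 3306 genes lower in all. The numbers were not taken as pairs, since the correlations of same-numbered deviations were 0.209, 0.617 and 0.0726 and not every library correlated best with its own number. With 1 library left out, all genes called lower ranged from 1367 (without control replicate 3) to 2219, all genes called higher from 1626 to 2323, members called higher from 3 to 4, other pathway genes called higher from 20 to 31 and lower from 17 to 25. With a library left out, AXIN1 ranged from -0.156 to 0.0288 and was above 0 without control replicate 1 (0.011), without knockdown replicate 2 and with both libraries numbered 2 left out (0.0057). That last alternative, chosen after the data were seen, called 2518 genes lower. CTNNB1 ranged from -0.0133 to 0.0548 and TCF7L2 from -0.0163 to 0.0735, each below 0 without knockdown replicate 2. The cause was not tested.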

Other observations

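Several members varied with the library number in the same way in both groups. Replicate 2 had the lowest CPM of its group for 6 members in the control and for 6 in the knockdown group, and these were the same 6 genes, NOTUM, RNF43, ZNRF3, AXIN2, NKD1 and TCF7. For 2 members, LEF1 and ENC1, replicate 2 was the highest in both groups. Among all tested genes, replicate 2 was the lowest in both groups for 22.9% and the highest in both for 24.1%. Both libraries numbered 2 also had the lowest total count of their group. With both left out, an alternative chosen after the data were seen, the log2 fold changes were 2.76 for DKK4, -1.10 for DKK1, 0.20 for NKD1, 0.45 for TCF7 and -1.24 for ENC1, and the same numbers of members were past the threshold, 4 higher and 2 lower. What the number stands for was not stated, and its part in the values was not tested.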
